A study of Mus musculus with 8 samples.

Results

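The subject here is a set of 10 genes of sphingolipid synthesis in mouse liver: Sptssa, Sptlc1, Sptlc2, Kdsr, Cers2, Cers5, Cers6, Degs1, Ugcg and Ormdl3. They were taken by gene symbol from the array annotation, older aliases allowed, out of 19938 genes measured, and each was represented by 1 probe set that listed no other gene. The set was selected on Sptssa's difference between the groups on these same 8 arrays, to which genes of its pathway were joined, so the knockout-minus-control differences of the 10 genes are given as a description, without a test. Livers came from 8 adult male mice, fasted for 16 h and then refed freely for 3 h. In 4 mice the genotype label was Rictor floxed, described as a liver-specific knockout made with Albumin-Cre and Rictor LoxP/LoxP, and 4 control mice were labelled wild type. Whether the controls carried a floxed allele or Cre is not stated in the labels. Albumin drives Cre in hepatocytes, and which other liver cells of the knockout keep the gene is not stated in the labels. Rictor belongs to mTOR complex 2, a kinase that phosphorylates Akt in insulin signalling. Each liver's RNA was measured on a separate Affymetrix Mouse Gene 1.0 ST array, and values are log2 expression after RMA, the summary of probe signals that also equalises arrays.

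Sphingolipids are built on a long-chain base made in the endoplasmic reticulum. Serine palmitoyltransferase (SPT) joins serine with palmitoyl-CoA in the entry step, a reductase and a ceramide synthase then give dihydroceramide, a desaturase makes ceramide, and ceramide is passed on to sphingomyelin, glucosylceramide and other lipids. SPT is a complex of 2 large catalytic subunits and a small activating subunit, restrained by ORMDL proteins when ceramide is plentiful. In liver, ceramides and their acyl chain lengths have been linked to insulin sensitivity.

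Sequence just before the start of the 3 SPT subunit genes Sptssa, Sptlc1 and Sptlc2 is shown because Sptssa and Sptlc1 lay furthest apart among the 10 genes. Each run is the 250 bases before the RefSeq start of the gene, 5′ to 3′ on the gene's own strand (build GRCm38.p6), and capitals mark CCAAT or its reverse complement ATTGG.
Sptssa, chr12:54656573-54656822, minus strand: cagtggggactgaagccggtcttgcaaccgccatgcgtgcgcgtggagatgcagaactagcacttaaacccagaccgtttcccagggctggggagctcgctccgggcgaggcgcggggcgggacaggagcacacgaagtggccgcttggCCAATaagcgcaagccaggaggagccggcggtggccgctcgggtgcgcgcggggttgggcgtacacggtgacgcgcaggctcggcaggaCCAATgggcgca
Sptlc1, chr13:53377362-53377611, minus strand: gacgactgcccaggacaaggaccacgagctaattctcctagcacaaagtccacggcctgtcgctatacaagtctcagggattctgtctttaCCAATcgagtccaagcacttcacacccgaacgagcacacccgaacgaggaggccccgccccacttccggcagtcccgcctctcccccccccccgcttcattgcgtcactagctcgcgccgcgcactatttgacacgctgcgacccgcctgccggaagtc
Sptlc2, chr12:87388356-87388605, minus strand: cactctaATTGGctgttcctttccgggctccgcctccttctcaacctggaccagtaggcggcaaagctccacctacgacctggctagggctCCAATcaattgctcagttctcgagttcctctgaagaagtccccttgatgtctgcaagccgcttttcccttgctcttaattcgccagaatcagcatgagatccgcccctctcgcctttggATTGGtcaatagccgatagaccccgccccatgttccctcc
Counted at the last base of the match, Sptssa held CCAAT at 97 and 8 bases before the start, Sptlc1 at 155 bases, and Sptlc2 at 155 bases with ATTGG at 239 and 36 bases. A CCAAT or ATTGG was present in 5 of the 10 genes' windows, against 34.5% of 27025 promoters of the same length. The E-box CACGTG was present in 3 of the 10, those of Cers2, Cers6 and Degs1, against 6.05% of all promoters. A further promoter window of Cers2, not counted here, held none of the motifs searched and was 54.0% G and C. TGACGTCA, the cyclic AMP response element, was present in the window of Ormdl3, and in 1.62% of all promoters. The FoxO element TGTTTAC (or GTAAACA) and the TATA box TATAAA (or TTTATA) were in none of the 10 windows, and in 3.09% and 13.0% of all promoters. The windows were rich in G and C, with a median of 67.2% and a range of 55.2% to 80.4%, against a median of 52.0% over all promoters. The pair CG occurred a median of 20.5 times per window, against 6 over all promoters. The shares over all promoters were not matched for base composition, so no enrichment or depletion of a motif is read from them. These motifs were chosen with the expression values known, and a match or its absence is a feature of the letters in this window only.

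The genotype labels could not be checked through the targeted transcript. Rictor read 9.15, 9.51, 9.68 and 9.47 on knockout-labelled arrays 1 to 4, against 9.47, 9.28, 9.23 and 9.64 on control arrays 1 to 4, a difference of 0.05 with a 95% interval from -0.23 to 0.32. The groups overlapped fully. The exons read by this probe set are not known here, and transcripts that lost only some exons can still be read, so the groups are named by their labels and every direction rests on them. The arrays numbered 1 also stood apart. Igfbp1, which insulin represses, read 7.76, 10.10, 10.10 and 9.65 on knockout-labelled arrays 1 to 4 and 10.04, 7.40, 7.30 and 7.29 on control arrays 1 to 4. Each array numbered 1 thus read like the other group in this transcript, and so it was for Irs2, with 8.24 on knockout-labelled array 1 against 9.21 to 9.30 on the other 3, and 9.08 on control array 1 against 8.29 to 8.37. Pck1 and G6pc, both insulin-repressed enzymes of gluconeogenesis, had their lowest knockout-labelled value on array 1 (12.93 for each) and their highest control value on array 1 (13.07 and 13.28). The hepatocyte markers Alb, Ttr, Apoa1, Serpina1c, Fgb, Tat, Cps1 and Cyp2e1 were all bright, with array means of 13.92 to 13.95 on knockout-labelled arrays and 13.87 to 13.95 on control arrays.

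Sptssa, the small subunit that activates SPT and helps to set which acyl-CoA it uses, was higher on every knockout-labelled array than on any control array. It read 7.36, 7.37, 7.79 and 7.58 on knockout-labelled arrays 1 to 4, and 6.93, 6.99, 6.74 and 6.70 on control arrays 1 to 4. The lowest knockout-labelled array stood 0.37 above the highest control array. The means were 7.53 ± 0.20 on knockout-labelled and 6.84 ± 0.14 on control arrays (SD, n = 4 each), a difference of 0.68 (SE 0.11, 95% interval 0.45 to 0.92) or 1.61-fold. Sptssa was chosen for this difference, which favours a large value, and the SE and interval make no allowance for that choice. They describe the spread of the arrays and are no test. Of the 19938 genes, 23 had a larger difference in this direction and 0 had a wider gap between the highest control and the lowest knockout-labelled array, values for which Sptssa had been picked out. Full separation with the knockout-labelled arrays above was found in 1.81% of all genes. The probe set was not bright: its mean over the 8 arrays was 7.18, below the median of 7.41 over the tested probe sets, and RMA compresses differences of dim probe sets. In whole liver, a change in the number of cells that express a gene and a change in RNA per cell cannot be told apart.

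The choice of Sptssa, a gene with full separation, fixes that both arrays numbered 1 sit with their own group in it, so this is a description only. Sptssa on knockout-labelled array 1 (7.36) was nearer to knockout-labelled arrays 2 to 4 (mean 7.58) than to control arrays 2 to 4 (mean 6.81), and on control array 1 (6.93) nearer to the controls. Among the 10 genes, knockout-labelled array 1 was nearer to control arrays 2 to 4 than to its own group in 8, all but Sptssa and Ormdl3, against 58.1% of all genes. Control array 1 was nearer to knockout-labelled arrays 2 to 4 in 4 of the 10 (Cers2, Cers6, Degs1 and Ugcg), against 46.9% of all genes.

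**Figure D1:**
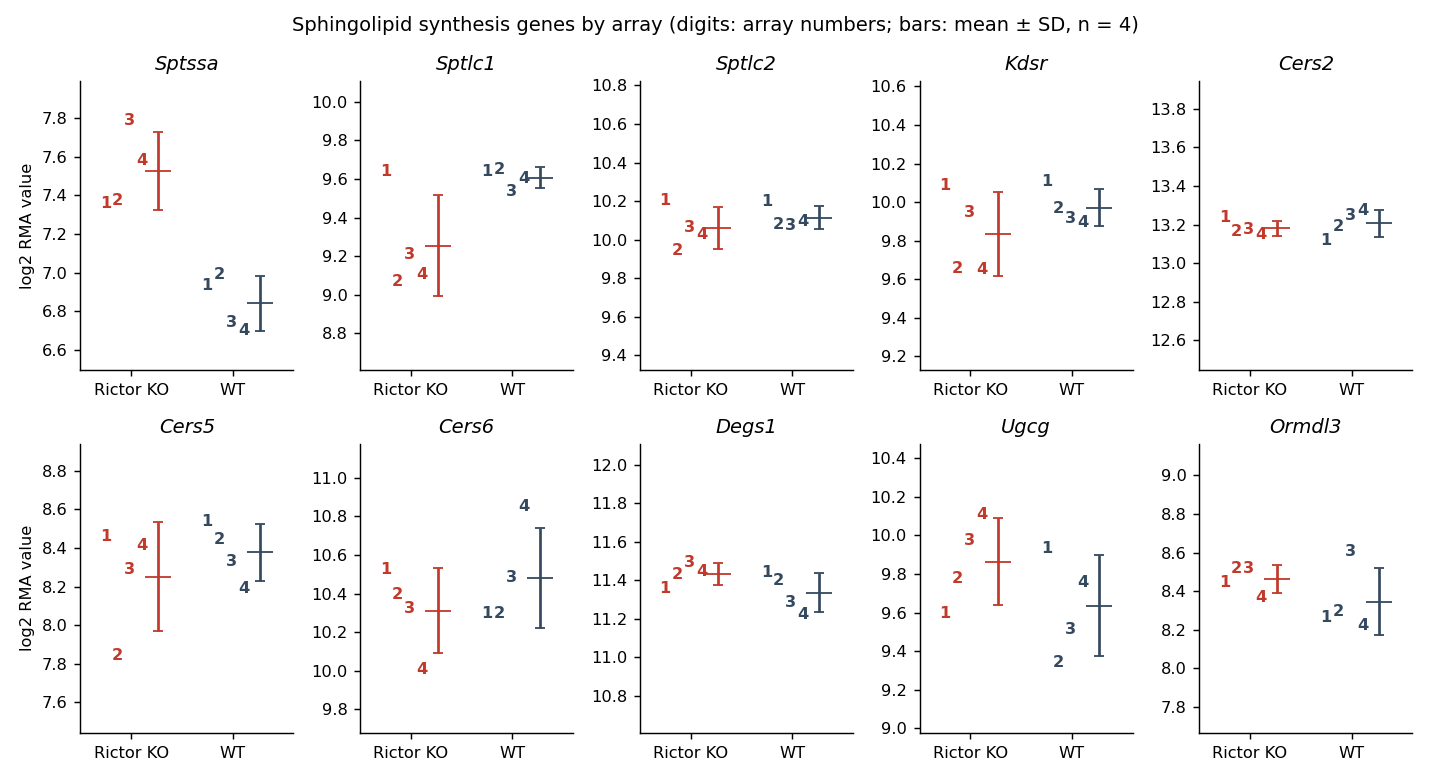
Log2 RMA value of each of the 10 genes on every array; each panel spans 1.5 log2 units, digits are the array numbers of the labels, and bars are the mean ± SD of 4 arrays. Sptssa is the only panel without overlap between the groups, and in Sptlc1 knockout-labelled array 1 (9.64) sits with the controls while the other 3 lie below them.

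The large subunits of SPT did not follow Sptssa. Sptlc1, which forms the catalytic dimer with Sptlc2, had the lowest difference of the 10 genes. It read 9.64, 9.07, 9.21 and 9.11 on knockout-labelled arrays 1 to 4, against 9.64, 9.65, 9.53 and 9.60 on control arrays 1 to 4. Knockout-labelled arrays 2 to 4 were all below the controls, and array 1 was at the level of the controls. The means were 9.25 ± 0.26 on knockout-labelled and 9.61 ± 0.05 on control arrays (SD, n = 4 each), a difference of -0.35 (SE 0.12). Without knockout-labelled array 1 it was -0.48. Over all genes, 463 had a lower difference than Sptlc1. Sptlc2, which carries the cofactor-binding lysine of the active site, read 10.20, 9.94, 10.06 and 10.02 on knockout-labelled and 10.20, 10.08, 10.08 and 10.10 on control arrays. Its difference was -0.05 (95% interval -0.25 to 0.14), from -0.10 to -0.016 with single arrays left out, and array 1 had the highest value of its group in both groups.

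Set against each other within an array, which removes any scaling of whole arrays, the SPT subunits differed in balance. The log2 ratio of Sptssa to Sptlc1, with the control mean set to 0, was 0.49, 1.07, 1.34 and 1.24 on knockout-labelled arrays 1 to 4, and 0.06, 0.11, -0.03 and -0.14 on control arrays 1 to 4. The knockout-labelled mean of 1.04 ± 0.38 against a control mean of 0 ± 0.11 (SD, n = 4 each) is 2.05-fold, and the groups did not overlap. The ratio of Sptssa to Sptlc2 was 0.43, 0.70, 1.00 and 0.83 on knockout-labelled arrays and 0.0051, 0.18, -0.06 and -0.12 on control arrays. That of Sptlc1 to Sptlc2 was -0.06, -0.37, -0.35 and -0.41 on knockout-labelled arrays, against -0.05, 0.08, -0.04 and 0.02 on control arrays, with array 1 of each group nearly equal and a gap between the groups of only 0.0062. These ratios are built from the same differences and carry no test. They show unequal change between probe sets, and give no information on the number of subunits per complex or on protein.

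The inhibitor Ormdl3, an endoplasmic reticulum protein that restrains SPT, overlapped between the groups. It read 8.44, 8.52, 8.52 and 8.37 on knockout-labelled arrays, and 8.26, 8.29, 8.61 and 8.22 on control arrays. All knockout-labelled arrays lay above 3 of the 4 controls and below control array 3. The difference was 0.12 (SE 0.10) with all arrays, 0.20 without control array 3 and 0.07 without control array 4. Kdsr, the reductase that makes dihydrosphingosine after SPT, read 10.09, 9.65, 9.95 and 9.65 on knockout-labelled and 10.10, 9.97, 9.92 and 9.89 on control arrays. Knockout-labelled arrays 2 and 4 were the lowest, and arrays 1 and 3 lay within the controls' range. Its difference was -0.14 (SE 0.11), and it was -0.22 without knockout-labelled array 1, -0.076 without array 2 and -0.075 without array 4 of that group.

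The 3 ceramide synthases, which attach the acyl chain, all overlapped between the groups and had slightly lower knockout-labelled means. Cers2, which uses very long acyl-CoAs and is the main ceramide synthase of liver, varied least, with 13.24, 13.17, 13.17 and 13.15 on knockout-labelled and 13.12, 13.19, 13.25 and 13.27 on control arrays. Its difference was -0.03, with a 95% interval from -0.16 to 0.11. Leaving out control array 1 gave -0.06 and leaving out control array 4 gave -0.0038. Cers6, which makes ceramides with palmitoyl chains, read 10.53, 10.40, 10.32 and 10.004 on knockout-labelled arrays and 10.30, 10.30, 10.48 and 10.85 on control arrays. Array 4 was the lowest of the knockout-labelled and the highest of the control arrays, and the difference of -0.17 (SE 0.14) became -0.07 without knockout-labelled array 4 and -0.05 without control array 4. Cers5, which uses palmitoyl-CoA as Cers6 does, read 8.46, 7.84, 8.29 and 8.42 on knockout-labelled and 8.54, 8.45, 8.33 and 8.19 on control arrays. Its difference of -0.13 (SE 0.13) rested on knockout-labelled array 2, without which it was 0.01. It was -0.20 without knockout-labelled array 1 and -0.07 without control array 1.

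Degs1, the desaturase that turns dihydroceramide into ceramide, and Ugcg, which adds glucose to ceramide and opens the way to glycosphingolipids, had slightly higher knockout-labelled means, with overlap. Degs1 read 11.36, 11.43, 11.49 and 11.45 on knockout-labelled arrays and 11.44, 11.40, 11.28 and 11.22 on control arrays, a difference of 0.10 (SE 0.08). Ugcg read 9.60, 9.78, 9.98 and 10.11 on knockout-labelled arrays and 9.93, 9.34, 9.51 and 9.76 on control arrays, a difference of 0.23 (SE 0.14). In both genes knockout-labelled array 1 was the lowest and control array 1 the highest of its group, the order also seen in Igfbp1. Without both arrays numbered 1 the difference of Ugcg was 0.42 and that of Degs1 0.16. Without control array 2 the difference of Ugcg was 0.13, and without knockout-labelled array 4 it was 0.15. Without control array 4 that of Degs1 was 0.06.

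Across the 10 genes, 4 had a higher and 6 a lower knockout-labelled mean, with a median difference of -0.04, against -0.02 over all genes. Of all genes, 43.1% had a higher knockout-labelled mean. At equal array weights 0 of the 10 passed the limma threshold (adjusted p under 0.05), and 0% of all genes did, while 2084 genes, or 10.5%, had an unadjusted p under 0.05. Only Sptssa was without overlap between the groups, against 4.42% of all genes in either direction. With array weights estimated by limma, 2 of the 10 passed, Sptssa as higher and Sptlc1 as lower, with 3.55% of all genes. The same 2 passed without knockout-labelled array 1 (4.4% of all genes) and without both arrays numbered 1 (7.47%), and Sptssa alone without control array 1 (0.296%). Because the contrast led to the choice of these genes, these counts are descriptions and nothing is read from them. Over all alternatives in which it was measured the difference of Sptssa lay between 0.60 and 0.77, and that of Sptlc1 between -0.48 and -0.29.

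**Figure D2:**
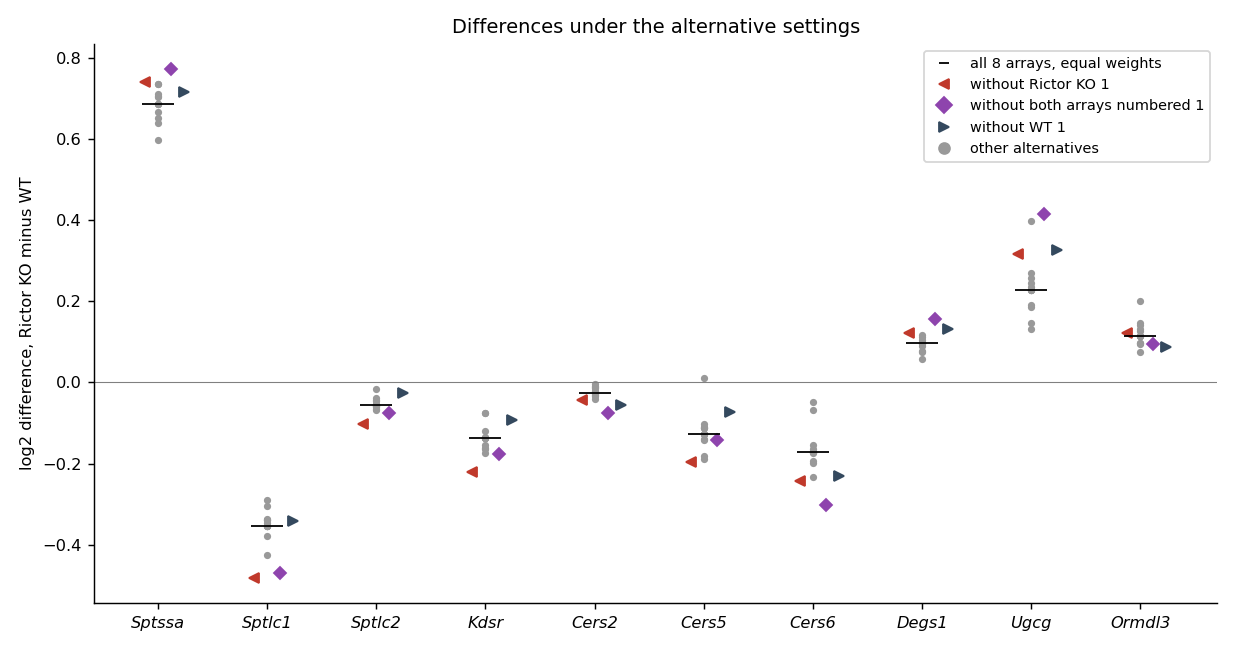
Log2 difference, knockout-labelled minus control, of each of the 10 genes with all 8 arrays at equal weights (black bars) and under the alternative settings (symbols). Sptssa stays between 0.60 and 0.77 and Sptlc1 between -0.48 and -0.29, while Cers5 reaches 0.01 when knockout-labelled array 2 is left out.

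The other sphingolipid genes had differences in both directions. Of 58 further genes of the pathway, listed by textbook role, 55 were measured. A higher knockout-labelled mean was seen in 28 and a lower one in 27, where 43.1% of all genes had a higher one. The median difference of the 55 was 0.0024, against -0.02 over all genes. With all arrays at equal weights 0 of them passed in either direction. An unadjusted limma p under 0.05 was reached by 1 gene with a higher and 6 with a lower mean, against 3.84% and 6.61% of all genes. In 2 of the 55 the groups did not overlap, Sptssb and Ugt8a, both lower on the knockout-labelled arrays, an order found in 2.61% of all genes.

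Among the other SPT subunits and regulators (Sptlc3, Sptssb, Ormdl1, Ormdl2 and Rtn4), 0 of 5 passed. Sptssb, the paralogue of Sptssa, was dim and read 4.65, 4.63, 4.25 and 4.46 on knockout-labelled arrays, against 4.72, 4.77, 4.69 and 4.65 on control arrays. Its difference was -0.21 (SE 0.09; limma adjusted p = 0.435), opposite in sign to that of Sptssa, and -0.13 without knockout-labelled array 3. The gap between the groups was only 0.0015. This level is well below the median of 7.41, and whether it exceeds the background of the arrays was not tested. Sptlc3, an alternative large subunit, was also dim, at 5.03 ± 0.20 on knockout-labelled and 4.90 ± 0.09 on control arrays (SD, n = 4 each), a difference of 0.13 (limma adjusted p = 0.682). It was 0.22 without knockout-labelled array 1 and 0.07 without knockout-labelled array 4. The Ormdl3 paralogues Ormdl1 and Ormdl2 differed by -0.14 (SE 0.17) and 0.15 (SE 0.13), with overlap.

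Among the other genes of ceramide formation 0 of 4 passed. Cers4, another ceramide synthase, read 7.68, 7.68, 7.80 and 7.80 on knockout-labelled arrays and 7.55, 7.62, 7.68 and 7.54 on control arrays, which differ by 0.14 (SE 0.08; limma adjusted p = 0.542). Degs2, the desaturase that can also hydroxylate, differed by -0.03 (limma adjusted p = 0.942), by 0.05 without control array 3 and by -0.09 without control array 1.

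Genes that carry ceramide onward had the widest spread of the 5 role groups, with differences from -0.38 to 0.38 and 0 of 14 past the threshold. Cert1, which transfers ceramide to the Golgi for sphingomyelin synthesis, read 9.25, 9.45, 9.91 and 9.78 on knockout-labelled arrays and 9.07, 8.99, 9.40 and 9.42 on control arrays. The difference was 0.38 (SE 0.15; limma adjusted p = 0.389), with overlap through knockout-labelled array 1. With array weights it was 0.56 and passed (limma adjusted p = 0.0428), and over its 16 alternatives the adjusted p lay between 0.0428 and 0.776. Ugt8a, which makes galactosylceramide, was dim, with 5.34, 5.22, 5.12 and 5.38 on knockout-labelled and 5.58, 5.65, 5.73 and 5.40 on control arrays. Its difference was -0.32 (SE 0.09; limma adjusted p = 0.225), which became -0.35 and past the threshold under array weights (limma adjusted p = 0.0421, and up to 0.633 over its alternatives). Cptp, the ceramide-1-phosphate transfer protein, is named after its values were seen, since it passed in 3 alternatives: it read 10.28, 9.68, 9.81 and 9.57 on knockout-labelled arrays and 10.06, 10.28, 10.42 and 10.07 on control arrays. Its difference was -0.38 (SE 0.15; limma adjusted p = 0.383), with knockout-labelled array 1 among the controls as in Sptlc1.

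In sphingolipid breakdown, 12 of 19 measured genes had a lower and 7 a higher knockout-labelled mean, with a median difference of -0.12 and 0 past the threshold. Over all genes, 11353 of 19938 had a lower knockout-labelled mean. Galc, the lysosomal galactosylceramidase, read 7.71, 7.13, 7.41 and 7.28 on knockout-labelled and 7.63, 7.71, 7.67 and 7.73 on control arrays, again with knockout-labelled array 1 among the controls. The difference was -0.30 (SE 0.11; limma adjusted p = 0.356). It was -0.41 when knockout-labelled array 1 was left out and -0.43 when both arrays numbered 1 were, and passed in each case (limma adjusted p = 0.0250 and 0.0185, up to 0.726 over its alternatives). Leaving out an array that sits among the other group widens the difference by arithmetic, so these passes are a description only. Hexa, the alpha subunit of lysosomal hexosaminidase, differed by 0.31 (SE 0.14; limma adjusted p = 0.471), with a control range of 9.64 to 10.46 that held 3 of the 4 knockout-labelled arrays. Without control array 4 the difference was 0.17.

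Among 13 genes of sphingosine 1-phosphate 0 passed. S1pr1, the receptor best known from endothelium and lymphocytes, read 10.88, 10.21, 9.82 and 9.96 on knockout-labelled arrays and 10.05, 10.61, 10.67 and 10.85 on control arrays. Both arrays numbered 1 lay toward the other group, and the difference of -0.33 (SE 0.22; limma adjusted p = 0.628) became -0.71 without them (limma adjusted p = 0.00231), where over all its alternatives the adjusted p reached 0.917. Leaving out arrays that lie toward the other group widens a difference by arithmetic, so the smaller p-value is no further support. With single arrays left out the difference of S1pr1 lay between -0.55, without knockout-labelled array 1, and -0.19, without knockout-labelled array 3. Aldh3a2, the fatty aldehyde dehydrogenase that clears the product of sphingosine 1-phosphate lyase, differed by 0.14 (SE 0.09; limma adjusted p = 0.643). It was 0.07 without knockout-labelled array 3, 0.08 without control array 3 and 0.21 without control array 1.

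**Figure D3:**
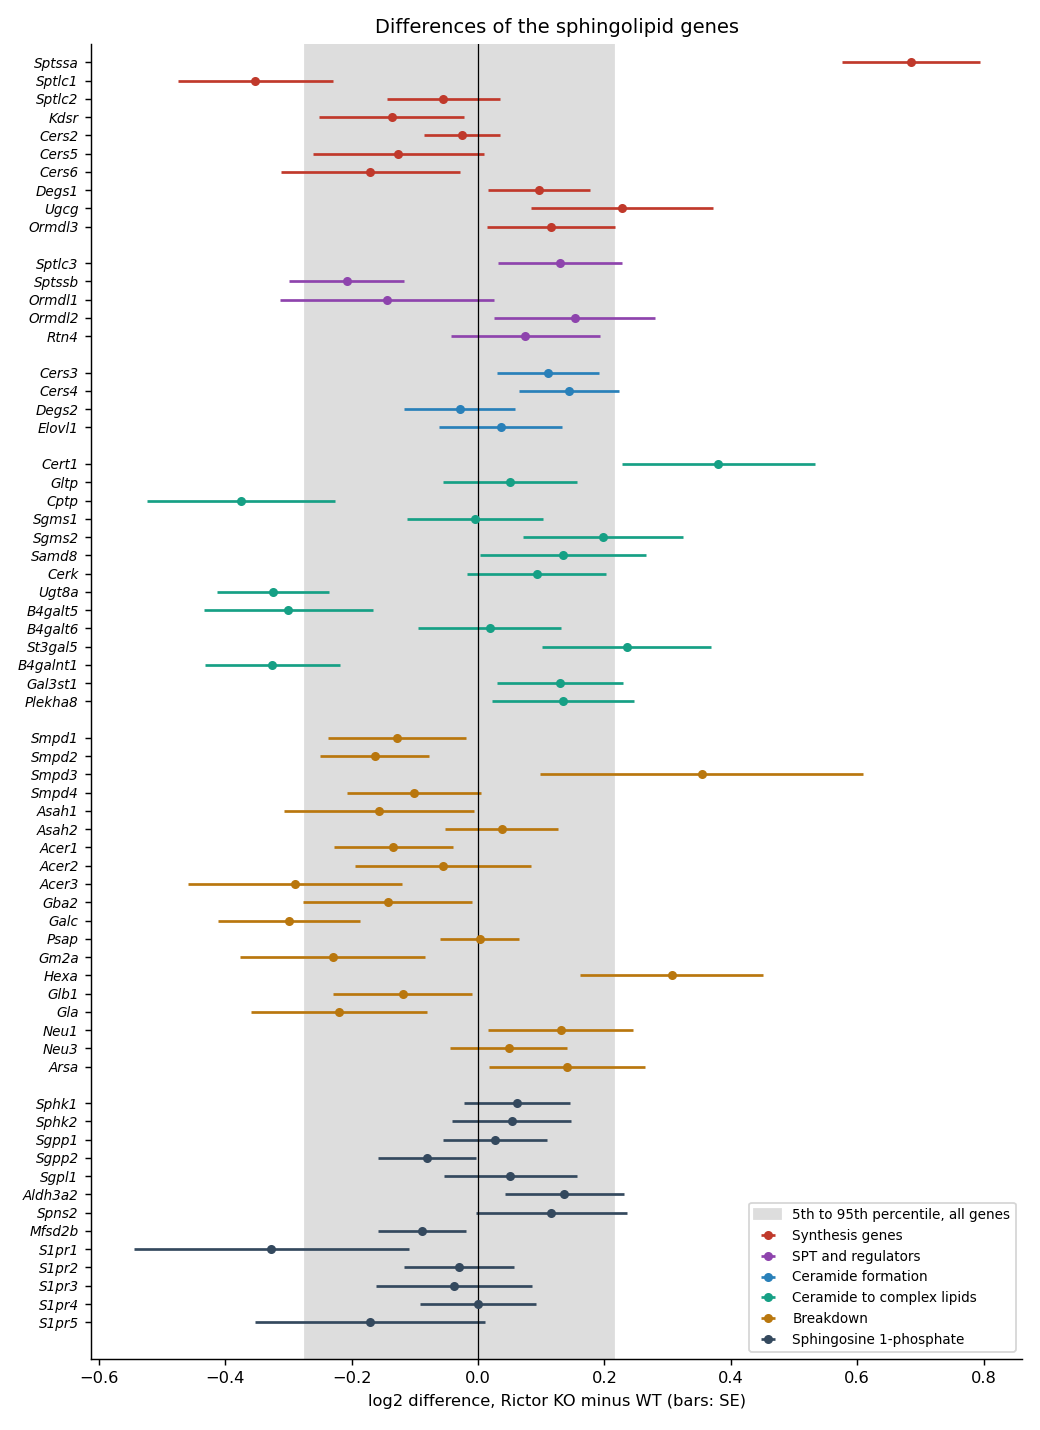
Log2 difference, knockout-labelled minus control (points, with SE bars), of the 10 synthesis genes and the 55 further sphingolipid genes by role; the grey band holds the 5th to 95th percentile of all genes, -0.27 to 0.22. Sptssa at 0.68 lies furthest from 0 of all genes drawn.

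The arrays' profile of Sptssa was closest to genes outside the pathway. Likeness was measured as the root mean square difference between 2 genes' log2 values over the 8 arrays, each centred on its own mean, and its median over 19937 genes was 0.41. Nearest were Srp14, a protein of the signal recognition particle (0.076), Ndufaf2, an assembly factor of respiratory complex I (0.11), Atox1, a copper chaperone (0.12), Nedd8, a ubiquitin-like modifier (0.12), Atp5l, a subunit of ATP synthase (0.12), and Rpl8, a ribosomal protein (0.13). Because they were chosen for their likeness over the same 8 arrays, their separation of the groups, their differences of 0.55 to 0.62 and their order of arrays (array 3 the highest and array 1 the lowest of the knockout-labelled) follow from the choice and are no further finding. Srp14 read 8.31, 8.52, 8.77 and 8.53 on knockout-labelled arrays, against 8.07, 7.99, 7.79 and 7.80 on control arrays. The 6 probe sets of Atp5l gave differences from 0.55 to 0.61. Near-identical gene copies could share signal with the probe sets of Rpl8 and Atp5l, which was not examined. Of the 10 synthesis genes the nearest to Sptssa was Degs1, at 0.31, in place 1459 of all genes, and the farthest was Sptlc1, at 0.57, in place 19255. A gene with the same value on all 8 arrays would lie at 0.37 from Sptssa. These places largely restate the group differences already given, because Sptssa was chosen for its own difference, and are no further finding.

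**Figure D4:**
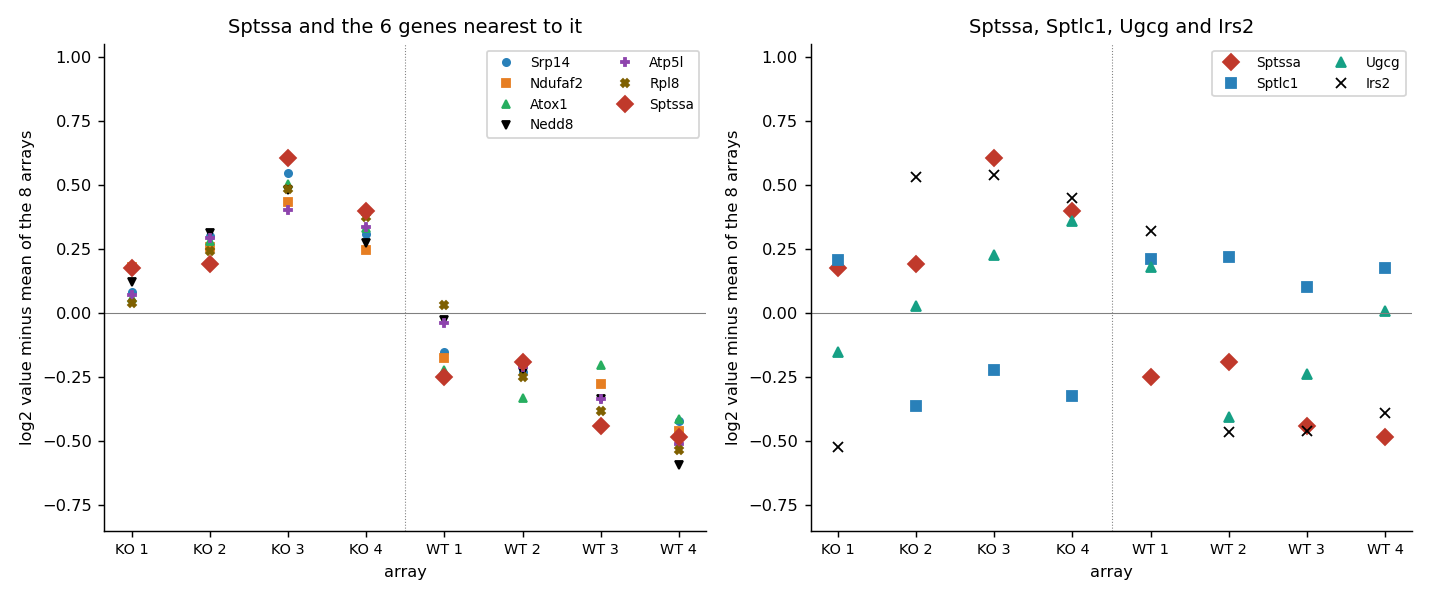
Log2 value minus the gene's mean over the 8 arrays, by array, with knockout-labelled arrays (KO) left of control arrays (WT): on the left Sptssa and the 6 genes nearest to it, on the right Sptssa, Sptlc1, Ugcg and Irs2. The nearest genes stay within 0.13 of Sptssa on root mean square, whereas Irs2 reads low on KO 1 and high on WT 1.

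Markers of other liver cells were set beside these values. The Kupffer cell list (7 of 7 measured) had array means from 9.07 to 10.08 on knockout-labelled and 8.94 to 9.66 on control arrays, with overlap. In this list 6 genes had a higher and 1 a lower knockout-labelled mean. Its member Marco had the largest difference of all markers, 0.59 (95% interval -0.03 to 1.21). Marco read 8.58 on knockout-labelled array 4, 6.79 to 7.31 on the others of that group and 6.68 to 7.23 on control arrays. The sinusoidal endothelial list (7 of 7) lay at 10.40 to 10.75 on knockout-labelled and 10.38 to 10.68 on control arrays, and the stellate cell list (7 of 7) at 9.46 to 9.57 on knockout-labelled and 9.29 to 9.71 on control arrays. The cholangiocyte list (4 of 5 measured) lay at 7.36 to 7.82 on knockout-labelled and 7.46 to 7.90 on control arrays. Its member Epcam read 7.03, 6.21, 6.31 and 6.06 on knockout-labelled arrays and 6.82, 6.85, 7.07 and 6.72 on control arrays. Knockout-labelled array 1 was among the controls and the other 3 below them, as in Sptlc1, Cptp, Galc and the breakdown gene Smpd2. The share of all genes with this order was not counted. By a looser measure, knockout-labelled array 1 was nearer to control arrays 2 to 4 than to its own group in 58.1% of all genes. Sox9 read 10.07, 9.18, 9.25 and 9.54 on knockout-labelled arrays and 9.32, 9.68, 10.49 and 10.33 on control arrays, so that the differences of Epcam and Sox9 were -0.46 and -0.44, with overlap. The keratins overlapped, Krt19 at 6.93 to 7.16 on knockout-labelled and 6.90 to 7.14 on control arrays, and Krt7 at 6.89 to 7.13 on knockout-labelled and 6.81 to 6.95 on control arrays. The lymphocyte list (5 of 6) lay at 6.34 to 6.69 on knockout-labelled and 6.48 to 6.86 on control arrays. All 5 had a lower knockout-labelled mean, as did 11353 of all 19938 genes. The median difference of the 5 was -0.12, and Cd79a was the lowest at -0.37 (95% interval -0.65 to -0.08). At equal weights 0 of the 5 passed. The erythroid list (2 of 5) lay at 8.55 to 8.96 on knockout-labelled and 8.59 to 8.99 on control arrays, and the pancreas and fat list (6 of 6) at 6.50 to 6.66 on knockout-labelled and 6.52 to 6.67 on control arrays. In the pancreas and fat list 2 genes had a higher and 4 a lower knockout-labelled mean. Among them Fabp4 differed by 0.39 (95% interval 0.016 to 0.77), with overlap. The part of these cells in the values of the sphingolipid genes was not tested.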

How the data were processed

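Liver RNA (100 ng per sample, per the labels' protocols) of 8 mice was measured on 1 array each. The authors deposited 1 log2 value per probe set and array; Affymetrix Expression Console, RMA and Partek are named in the submitters' processing notes, with no version. The log2 base was read from the range of the values and from RMA. Because RMA equalises arrays, a shift of the whole transcriptome is invisible here. Medians over the 35556 probe sets lay between 6.90 and 7.03. The number of arrays limits the precision, and separate mice per array are read from the labels.

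Of the probe sets, 21789 had 1 gene symbol, 1621 several and 12146 none. Symbols were updated by Entrez identifier (21698 matched) against RefSeq (GRCm38.p6), and the brightest probe set stood for each of 19938 genes, 999 of which had more than 1. All 10 genes matched a RefSeq promoter, of which Cers2 has a pair; the window listed first was used. Knockout-labelled minus control was fitted with limma 3.58.1 in R 4.3.3 (eBayes with a trend, two-sided), and p-values were adjusted by Benjamini-Hochberg over the 21789 probe sets, with a threshold of 0.05. The procedure was tested on simulated data. The 10 genes, the lists and the alternatives were chosen with earlier results of these data known. Named genes were the 10, the smallest p in each direction per role group, the 6 nearest to Sptssa, Rictor and 4 transcripts of the feeding state. Cptp, St3gal5 and Smpd2 were added after their values were seen and are not among the 31 genes checked for outliers. Of the pathway list 3 genes were not analysed here, nor were protein lengths.

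Same-numbered arrays deviated from their group means with correlations of -0.0994, -0.128, -0.0356 and 0.0552, and the numbers were not taken to pair the arrays. Alternatives were array weights, no trend, the brighter probe sets only, another quantile normalisation, median centring, the mean of a gene's probe sets, a replicate block, each array left out, and both arrays numbered 1 left out.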

Additional observations from a re-analysis of the deposited data

Results flagged for a closer look

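Among 31 named genes and 62 groups of 4 arrays, 4 values stood far from the other 3 of their group by Dixon's 95% criterion, which chance meets in about 1 of 20 groups. Control array 1 read 10.20 in Sptlc2, against 10.08 to 10.10 on the other controls. It read 10.04 in Igfbp1, against 7.29 to 7.40, and 9.08 in Irs2, against 8.29 to 8.37. Knockout-labelled array 1 read 8.24 in Irs2, against 9.21 to 9.30 on the other knockout-labelled arrays. All 4 values belong to the arrays numbered 1.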

How the results depend on the processing

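With all arrays at equal weights 0 genes passed (2084 with an unadjusted limma p under 0.05). Array weights gave 707 genes (3.55% of all), 2 of the 10 synthesis genes and 3 of the 55 further pathway genes (Cert1, Cptp and Ugt8a). Leaving out both arrays numbered 1 gave 1489, 2 and 10. Leaving out single arrays gave from 0 to 877 genes, from 0 to 2 of the synthesis genes and from 0 to 3 of the further genes. These calls came from knockout-labelled array 1 left out (877 or 4.4% of all genes, 2 and 3) and control array 1 left out (59 or 0.296%, 1 and 0). No other setting called a gene. With the replicate block the count stayed at 0, and the numbers were not shown to pair the arrays. With single arrays left out Degs2 lay between -0.092 and 0.049, positive without control array 3. Of the named synthesis and pathway genes, Sptssa passed in 4 alternatives, Sptlc1 and Cptp in 3 each, Galc and St3gal5 in 2 each, and Cert1, Ugt8a and S1pr1 in 1 each. The synthesis genes were chosen with this contrast known, and Cptp and St3gal5 were named after their values were seen. These counts are therefore a description only, and no support for a difference is read from them. Besides Degs2, Cers5 changed sign, to 0.01 without knockout-labelled array 2. The brighter probe sets alone left Sptssa untested. The cause of the dependence on the arrays numbered 1 was not tested.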
